A study of Mus musculus with 8 samples.

Results

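A set of 10 transcription factors of Purkinje cells was followed in the cerebellum of mouse embryos with and without a Cre-driven deletion of Pals1. Pals1, encoded by Mpp5, is a scaffold of the Crumbs complex, which sets up the apical side of neural progenitors. The members are the forkhead factors Foxp1, Foxp2 and Foxp4, the nuclear receptor Rora, the early B-cell factors Ebf1, Ebf2 and Ebf3, the LIM homeodomain factors Lhx1 and Lhx5, and the corepressor Skor2. They were taken by symbol, as every probe that the platform annotation gives to one of these names. That gave 14 of 25697 probes and 9 of the 10 symbols, out of 16593 symbols on the array. Skor2 was matched to no probe and was not analysed here. All 14 probes passed the filter on dim probes, so that 9 of the 12912 genes tested are members.

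Purkinje cells are the GABAergic output neurons of the cerebellar cortex. They are born in the ventricular zone under the control of Ptf1a, leave the cell cycle, switch on Lhx1, Lhx5, Skor2 and the Foxp and Ebf factors, and then mature under Rora, whose loss causes the staggerer phenotype in mice. Several of the factors are also used elsewhere in the brain and its coverings, Ebf1 for example in pericytes and Lhx1 and Lhx5 in other early GABAergic neurons.

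Cerebellum tissue was profiled at embryonic day 17.5 on Illumina BeadArrays, with an array for each of 8 animals. The 4 animals labelled WT carried Pals1 fl/fl, homozygous floxed alleles, and no Cre. The 4 labelled CKO carried Pals1 fl/fl and hGFAP-Cre, a Cre transgene that, per the series design, deletes Pals1 in most neurons and glia of the cerebellum. Purkinje cells are not named there, and no group carried Cre without the floxed alleles, so that an effect of Cre itself and of the deletion cannot be told apart.

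Median raw intensities lay between 118.7 and 133.5. At its brighter probe Mpp5 fell from a log2 level of 7.06 in WT to 6.20 in CKO with no overlap (log2 change -0.87, limma adjusted p = 8.47e-06). The CKO level lies below the filter level of 6.26, so the probe was tested through its WT level and the size of the change is not well measured. This change was -1.34 with an offset of 16 and -0.42 as the mean of both probes, the second of which was below the filter. Whether the probes lie in the deleted part was not tested. CKO.3 stood apart on the second principal component (16.1% of the variance) and carried the highest level of meningeal markers. The log2 level of Xist was 9.71 to 10.10 on 3 WT arrays, against 6.83 on WT.3 and 6.60 to 6.77 on the CKO arrays, with the Y-linked Eif2s3y in the opposite pattern, so that sex was unevenly spread over the groups. Zic1, a cerebellar granule lineage factor (13.28 in WT), and Pcp2, a Purkinje cell protein (11.64), were bright, whereas the probe for the Purkinje marker Calb1 was below the filter.

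Most of the measured Purkinje cell transcription factors were higher in the CKO cerebellum. Of the 9, 7 rose: Foxp1, Foxp2, Foxp4, Rora, Ebf1, Ebf2 and Ebf3. None fell, at the adjusted threshold or at an unadjusted p under 0.05 in limma, and Lhx1 and Lhx5 did not pass the test. The 7 are 77.8% of the members, against 9.15% of all genes tested that rose and 8.64% that fell (1182 and 1115 genes, 17.8% in either direction). The members were chosen with earlier results of these data known, so this contrast is a description and not a test. The median change was 0.45 on the log2 scale for the members and 0.0075 for all genes tested. The groups did not overlap for 6 members, with CKO above WT, as for 10.9% of all genes tested, and CKO lay below WT for no member and for 10.2% of all genes. Of the 14 member probes 12 rose and 0 fell, against 8.16% and 7.98% of all probes tested (16.1% in either direction). In RNA from whole tissue a larger share of Purkinje cells and more of these transcripts per cell cannot be told apart. The count depends on single arrays: 4 members were called without WT.3, the same number without CKO.2, and 4 with the Xist level as a covariate. In these settings 911, 967 and 362 of all genes were called higher, also fewer than the 1182 of the main fit. WT.3 was the only WT array with Xist near the CKO level. With that covariate the comparison therefore rests largely on WT.3 for its WT side, wherever it is given below. Foxp2, Rora and Ebf2 were called under all 20 alternatives that were run. When arrays were scaled to a common median instead, 792 genes rose and 1337 fell, and 6 members rose.

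**Figure D1:**
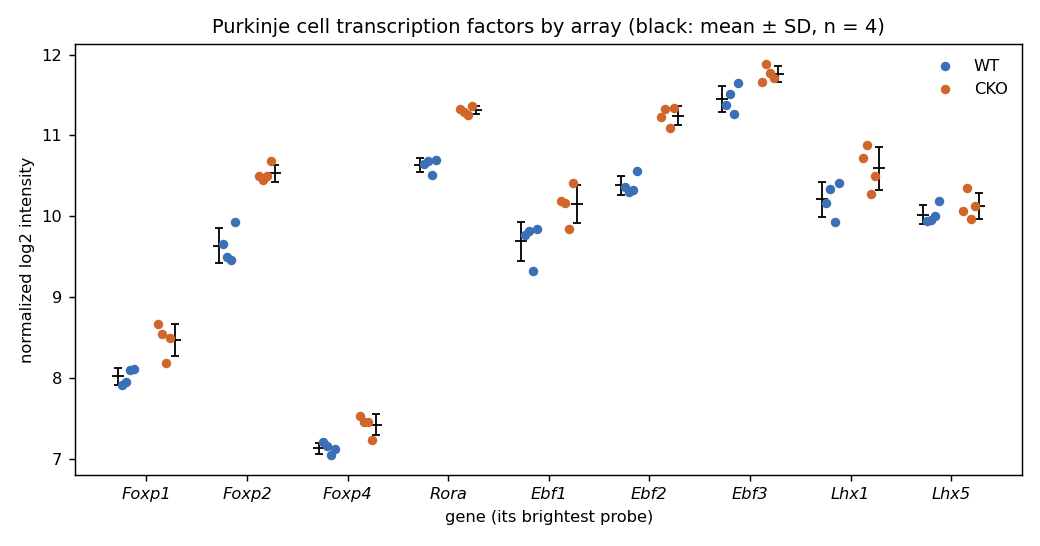
Normalized log2 intensity (vertical axis) of the 9 measured factors on each array, at the brightest probe of each gene; blue points are the 4 WT animals, orange points the 4 CKO animals, and black marks the mean ± SD. For Foxp2, Rora and Ebf2 every CKO point lies well above every WT point, while the Lhx5 points of both groups overlap.

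Foxp2 and Ebf2 had the largest estimated changes of the members, and which of them was larger depended on the setting. Foxp2 is a forkhead repressor expressed by Purkinje cells from soon after their birth, and in humans its mutation disturbs speech. At its brightest probe the raw intensities were 897.4, 789.5, 684.6 and 974.9 in WT and 1553.5, 1288.1, 1500.2 and 1515.0 in CKO, in order of replicate number. Every CKO array was thus above every WT array. After normalization the log2 level was 9.64 ± 0.217 (SD, n = 4) for WT animals against 10.53 ± 0.106 (SD, n = 4) for CKO animals. This is a 1.86-fold rise, 0.90 on the log2 scale (limma adjusted p = 0.000126), with a 95% interval from 0.68 to 1.12. By an exact two-sided permutation test p was 0.0286, the smallest that 70 assignments allow. The change of Foxp2 lay at percentile 99.9 of all genes tested.

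The other 3 Foxp2 probes rose as well. They changed by 0.83, 0.77 and 0.66 on the log2 scale (limma adjusted p over all probes from 0.000244 to 0.000678), and none of the 3 overlapped between the groups. The smallest of these changes was at ILMN_2701613, the dimmest Foxp2 probe, with a log2 level of 7.14 in WT and 7.80 in CKO. The annotation gives these 3 probes to one RefSeq transcript of Foxp2 and the brightest to another.

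Foxp1 and Foxp4, which can pair with Foxp2 through a shared leucine zipper, rose with smaller estimates. Foxp1 read 7.92, 7.95, 8.10 and 8.12 on the log2 scale in WT and 8.66, 8.54, 8.19 and 8.49 in CKO. The lowest CKO array, CKO.3, was only just above the highest WT array. Foxp1 rose by 0.45 (SE 0.10, limma adjusted p = 0.00664) and lost its call with the Xist covariate (0.35, adjusted p = 0.224); over all alternatives its adjusted p ran from 0.000431 to that value. Foxp4 read 7.21, 7.15, 7.05 and 7.12 in WT and 7.54, 7.46, 7.46 and 7.23 in CKO, and its groups did not overlap either, although the raw intensity of CKO.4 (149.7) lay inside the WT range of 140.6 to 170.6. Foxp4 rose by 0.29 (SE 0.08, adjusted p = 0.0208) at a level near the middle of the array, at percentiles 54.9 to 63.1. It lost its call without WT.3, CKO.1 or CKO.2 and with the Xist covariate, where its change was 0.38 with a larger SE of 0.12 (adjusted p up to 0.0959, and 0.00841 at the lowest over the alternatives).

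Rora had the smallest standard error of the members. This orphan nuclear receptor is needed for Purkinje cells to mature, form dendrites and secrete Shh. Its brighter probe, ILMN_1243741, read 10.65, 10.69, 10.51 and 10.69 on the log2 scale in WT and 11.33, 11.29, 11.26 and 11.37 in CKO. Every CKO array was thus higher by more than the range within either group. The rise was 1.60-fold, a log2 change of 0.68 with a 95% interval from 0.53 to 0.82 (limma adjusted p = 5.79e-05). The second probe, ILMN_2742686, was dim, with log2 levels of 6.71 ± 0.263 (SD, n = 4) for WT animals and 7.09 ± 0.102 (SD, n = 4) for CKO animals. Its groups overlapped, since WT.4 read 7.04 and CKO.4 7.01. That probe rose by 0.37 (limma adjusted p = 0.0354 over all probes) and lost its call in 7 of 10 alternatives (adjusted p from 0.00537 to 0.118).

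**Figure D2:**
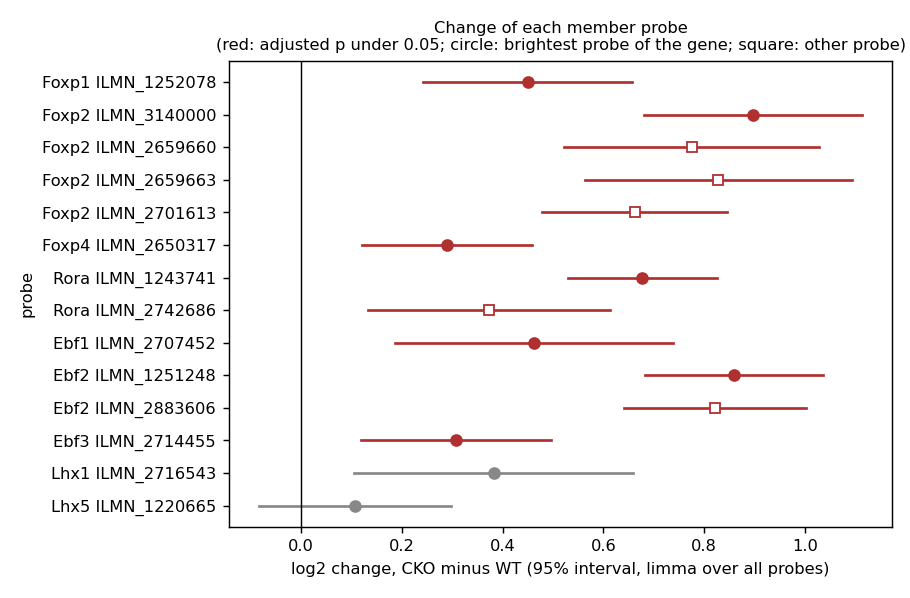
Change of each of the 14 member probes, CKO minus WT on the log2 scale (horizontal axis), with its 95% interval from limma over all probes; circles mark the brightest probe of a gene, squares its other probes, and red marks an adjusted p under 0.05. The 12 red probes all lie to the right of 0, and the probes of Foxp2 and of Ebf2 lie near each other.

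Ebf2 exceeded Foxp2 when a gene's probes were averaged (0.84 against 0.79) and, by under 0.01, without WT.3 or CKO.3. Ebf factors are helix-loop-helix proteins of early neurons, and in mice Ebf2 marks a subset of Purkinje cells and is needed for their migration and survival. At ILMN_1251248 the raw intensities were 1458.3, 1357.6, 1228.1 and 1490.3 in WT and 2570.1, 2330.8, 2238.0 and 2398.2 in CKO. No CKO array came near the WT range. The log2 level went from 10.38 ± 0.118 (SD, n = 4) to 11.24 ± 0.115 (SD, n = 4), a 1.81-fold rise (log2 change 0.86, 95% interval 0.68 to 1.04, limma adjusted p = 4.11e-05). Its second probe, ILMN_2883606, changed by 0.82 (limma adjusted p = 5.31e-05 over all probes), also without overlap.

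Ebf1 and Ebf3 rose with smaller estimates, and both calls depended on single arrays. Ebf1 read 9.77, 9.82, 9.33 and 9.85 in WT and 10.19, 10.16, 9.84 and 10.41 in CKO, so that WT.3 was low for its group and CKO.3 fell inside the WT range. Ebf1 rose by 0.46 (SE 0.13, limma adjusted p = 0.0264). It lost its call without WT.3, CKO.1, CKO.2 or CKO.4 and with an offset of 16 (adjusted p up to 0.0826, and 0.00250 at the lowest over the alternatives). With the Xist covariate its change was 0.84. Ebf3 read 11.38, 11.51, 11.27 and 11.64 in WT and 11.67, 11.89, 11.77 and 11.71 in CKO. Its groups did not overlap, but WT.4 and CKO.1 almost met. Ebf3 rose by 0.31 (SE 0.09, adjusted p = 0.0280) but did not pass when WT.1, WT.3 or CKO.2 was left out, with an offset of 16, with median scaling or with the Xist covariate, where its change was 0.49 (adjusted p up to 0.0803, and 0.0119 at the lowest over the alternatives).

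The LIM homeodomain pair did not pass. In mice Lhx1 and Lhx5 act together, with their cofactor Ldb1, in the differentiation of postmitotic Purkinje cells. Lhx1 read 10.16, 10.34, 9.93 and 10.41 in WT and 10.72, 10.88, 10.27 and 10.49 in CKO. CKO.3 lay inside the WT range, and the other CKO arrays lay above it. The change was 0.38 (SE 0.13, 95% interval 0.10 to 0.67, limma adjusted p = 0.0619), and it passed without CKO.3 (0.49, adjusted p = 0.0105), without WT.4 (adjusted p = 0.0479) and with array weights (adjusted p = 0.0185). It was 0.66 with the Xist covariate (adjusted p = 0.0733), and the highest adjusted p over the alternatives was 0.172. Lhx5 read 9.94, 9.96, 10.01 and 10.18 in WT and 10.07, 10.35, 9.97 and 10.13 in CKO. The groups overlapped widely, and the change of 0.11 had a 95% interval of -0.08 to 0.30 (adjusted p = 0.472).

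Within families the changes looked unequal, but no pair passed a test of the difference. The 7 pairs of paralogues were compared by the exact two-sided permutation test on the difference of their log2 levels on each array, adjusted over the pairs. The estimated change of Foxp2 exceeded that of Foxp4 by 0.61 and that of Ebf2 exceeded Ebf3 by 0.55, and Foxp1 minus Foxp2 was -0.45. For these 3 pairs the differences did not overlap between the groups (exact permutation p = 0.0286 each, adjusted p = 0.0667). For Ebf1 against Ebf2 the difference was -0.40 (exact permutation adjusted p = 0.100), and for Lhx1 against Lhx5 it was 0.27 (exact permutation adjusted p = 0.120). Foxp1 minus Foxp4 was 0.16 and Ebf1 minus Ebf3 was 0.15 (exact permutation adjusted p = 0.267 and 0.371). With 4 animals a group, at least 5 of the 7 pairs would have had to reach the smallest p for any to pass.

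The arrays within a group differed in level for several members at once. The mean deviation of the 9 genes from their 8-array means was -0.26, -0.24, -0.38 and -0.10 in WT and 0.28, 0.33, 0.11 and 0.27 in CKO. WT.3 was the lowest WT array for Foxp2, Foxp4, Rora, Ebf1, Ebf3 and Lhx1, and CKO.3 the lowest CKO array for Foxp1, Rora, Ebf1, Ebf2, Lhx1 and Lhx5. Across the 8 arrays, after the group means were taken off, Rora and Ebf1 had the highest correlation between members (r = 0.95) and Foxp4 and Ebf2 the lowest (r = -0.32). These arrays share the same RNA for all genes, and the values are descriptions.

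**Figure D3:**
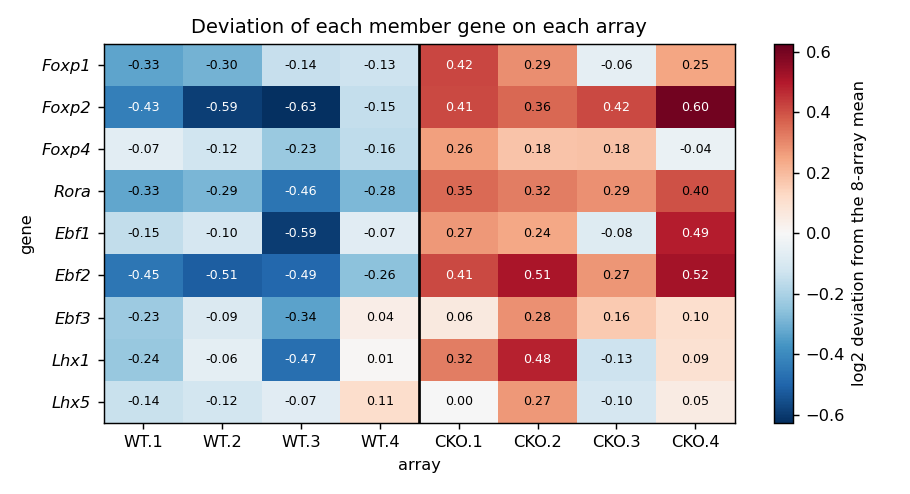
Deviation of each member gene from its own 8-array mean (colour and printed value, log2) on each array, with WT to the left of the black line and CKO to the right. Values are negative on nearly all WT arrays and positive on most CKO arrays, and CKO.3 is slightly below 0 for Foxp1, Ebf1, Lhx1 and Lhx5.

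Outside the members, the genes whose levels followed the mean deviation of the 9 most closely over the 8 arrays were Gars (r = 0.989), the glycyl-tRNA synthetase, Sorcs3 (r = 0.989), a neuronal sorting receptor, and Macrod2 (r = 0.987). Sorcs3 rose by 0.54 (limma adjusted p = 0.00135) and Macrod2 by 0.50 (adjusted p = 0.000650), while Gars was at 0.14 (adjusted p = 0.143). After the group means were taken off, Dzip3 (r = 0.982), Grk6 (r = 0.979) and Clgn (r = 0.971) were closest, and none of these 3 passed the test between the groups. With 8 arrays and 12912 genes such high values describe these arrays only.

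Ptf1a and Neurog2, which act before the members in the lineage, fell. Of 6 tested genes that specify Purkinje cells in the ventricular zone, 2 fell and 0 rose at the adjusted threshold (0 also at an unadjusted p under 0.05 in limma), with a median change of -0.08. Ptf1a, the helix-loop-helix factor that commits ventricular zone progenitors to GABAergic fates, went from 7.81 to 6.84 on the log2 scale and fell by 0.96 (SE 0.11, limma adjusted p = 0.000169). Neurog2, a proneural factor of cerebellar progenitors, fell by 0.68 (adjusted p = 0.00330). Neither overlapped between the groups. Which cells carried these transcripts at embryonic day 17.5 was not tested, so the falls are not a measure of Purkinje cell specification. Dll1, a Notch ligand (-0.08), Neurog1 (-0.08), Kirrel2 (-4.18e-05) and Olig2 (0.08) did not pass.

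Partners of the members were mixed. Of 10 tested cofactors 2 rose and 2 fell, and the median over the list was -0.03. Ldb1, the protein that LIM homeodomain factors need to act, fell by 0.32 (adjusted p = 0.0167), whereas its paralogue Ldb2 rose by 0.39 (adjusted p = 0.00990) and Ssbp2, which stabilises Ldb proteins, rose by 0.33 (adjusted p = 0.0155). Zfp521, a zinc-finger protein that binds Ebf factors, fell by 0.33 (adjusted p = 0.0166), and its paralogue Zfp423, another Ebf partner, was at 0.10 (adjusted p = 0.635). Ssbp3, Gatad2b, Kat5, Ctnnb1 and Ep300 did not pass, and Ctbp1 was below the filter.

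Known targets could be read for few genes. Of 3 tested genes that Rora activates in mouse Purkinje cells 2 rose, with a median change of 0.41. Pcp2, a regulator of G proteins in Purkinje cells, rose by 0.59 (adjusted p = 0.000992) and the secreted ligand Shh by 0.41 (adjusted p = 0.000866). The glutamate transporter Slc1a6 was at 0.17 (adjusted p = 0.155), and Pcp4 was below the filter. Of 3 genes that FOXP2 represses in human or mouse cells 2 rose: Cntnap2, a neurexin-like adhesion protein, by 0.60 (adjusted p = 0.000377) and the transcription factor Mef2c by 0.44 (adjusted p = 0.00234). Srpx2 was at 0.07 (adjusted p = 0.680).

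Other proteins of Purkinje cells did not move as one. Of 5 tested members of that list, which shares Pcp2 and Slc1a6 with the Rora targets, 2 rose and 1 fell, and the median over the list was 0.17. Dab1, the adaptor of the reelin receptors through which Purkinje cells find their layer, rose by 0.62 (adjusted p = 0.000320). The calcium buffer Pvalb, which is also made by other cells, fell by 1.30 (adjusted p = 0.000535). Ppp1r17 was at -0.10 (adjusted p = 0.475). Relatives of the members that are not Purkinje cell factors did not pass: of 10 tested paralogues 0 rose and 0 fell in limma, and 1, Lhx9, was higher at an unadjusted p under 0.05 (0.22, adjusted p = 0.0797). Skor1, the paralogue of Skor2, was at 0.16 (adjusted p = 0.275), and Rorb at 0.08 (adjusted p = 0.766).

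**Figure D4:**
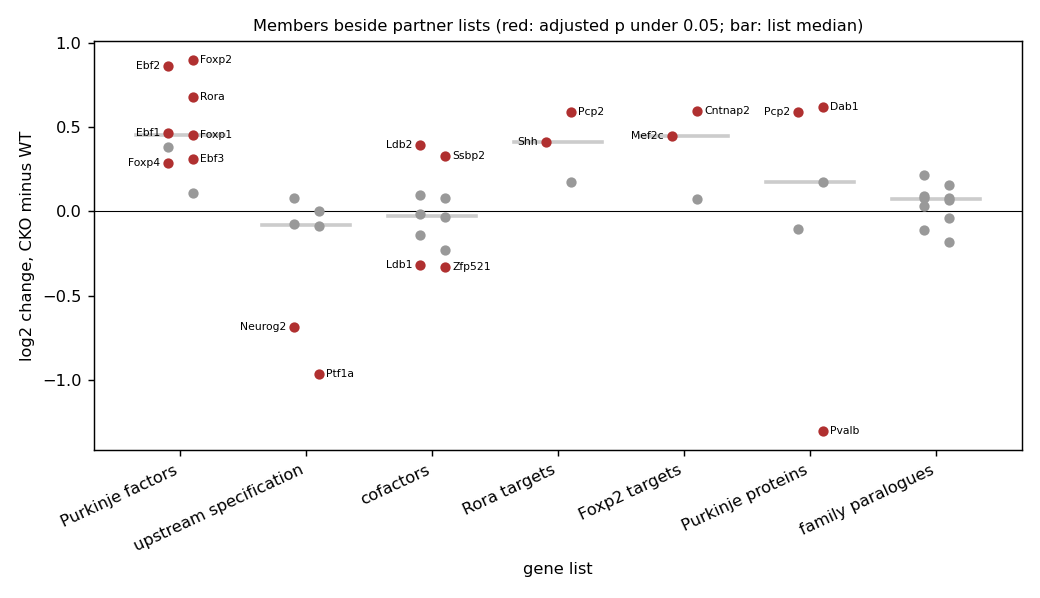
Change of each tested gene, CKO minus WT on the log2 scale (vertical axis), for the Purkinje cell factors and for 6 lists of upstream factors, cofactors, targets, other Purkinje proteins and paralogues; red points passed an adjusted p of 0.05 and are named, and grey bars are list medians. Ptf1a and Neurog2 lie below 0 where the Purkinje cell factors lie above it, and no paralogue is red.

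Marker lists of other cells moved between the groups too, and their part in the members' changes was not tested. Of 6 tested markers of granule cell progenitors 6 fell, with summed normalized levels of 18822 to 23478 in WT and 11389 to 13926 in CKO, and Atoh1, Pax6, Mycn and Gli1 were below the filter. Of 6 tested markers of granule neurons 5 fell and 1 rose (sums of 21442 to 23887 in WT and 19209 to 21910 in CKO). For endothelium and pericytes, where Ebf1 is also expressed, 4 of 8 rose, and the sums were 1596 to 1675 in WT and 1790 to 2487 in CKO. CKO.3 had the highest of these sums. It was also the lowest CKO array for Ebf1, as for Foxp1, Rora, Ebf2, Lhx1 and Lhx5, but not for Foxp2, Foxp4 or Ebf3. A part of endothelium or pericytes in the Ebf1 level was not tested. For microglia 6 of 7 rose, with sums of 1083 to 1143 in WT and 1364 to 1609 in CKO.

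Of 7 meningeal markers 0 passed in limma (2 higher at an unadjusted p under 0.05), with sums of 579 to 918 in WT and 679 to 911 in CKO other than CKO.3, which was at 3652. Without CKO.3, 8 members and 1302 of all genes were called higher, against 7 and 1182 with all arrays. The member count was also 8 without WT.4, with array weights and with the replicate block. Whether meningeal tissue had a part in the count was not tested. On the list for GABAergic interneurons 1 of 4 rose, the vesicular transporter Slc32a1, by 0.36 (limma adjusted p = 0.00663). The sums were 10075 to 12029 in WT and 12340 to 13057 in CKO. Purkinje cells are GABAergic too, so Slc32a1, Gad1 and these sums do not tell interneurons from Purkinje cells. Pax2, the marker of interneuron precursors, was at 0.11 (adjusted p = 0.293) and Gad2 was below the filter. For astroglia 1 of 7 rose, with sums of 20682 to 22817 and 20054 to 23846.

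**Figure D5:**
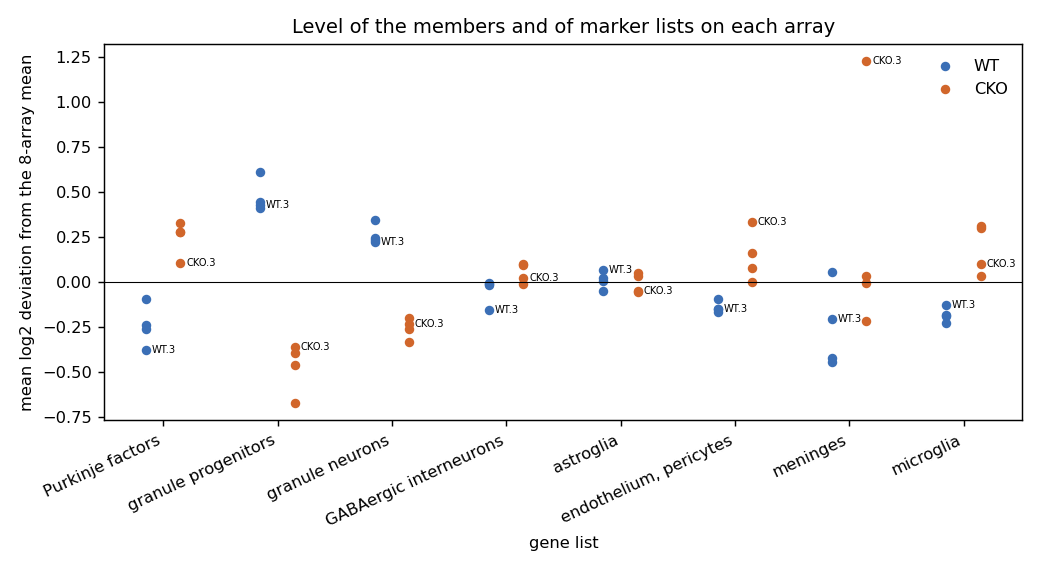
Mean deviation from the 8-array mean (vertical axis, log2) of the Purkinje cell factors and of 7 marker lists on each array, WT in blue and CKO in orange, with WT.3 and CKO.3 named. The Purkinje cell factors separate the groups in the direction opposite to the granule cell lists, and the meningeal markers stand out on CKO.3 alone.

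Promoter windows are shown for 3 of the factors that rose, as examples of the sequence at the starts of members. RefSeq windows of 300 bases on GRCm38.p6, from 250 bases before a start to 50 after it, were at hand for 6 members with 9 windows in all. There was none for Foxp2, Ebf2, Lhx5 or Skor2. The first is that of Rora (chr9:68653536-68653835, plus strand), with 60.3% G and C and 28 CpG. The second is the middle of 3 starts of Foxp1 (chr6:99266466-99266765, minus strand), with 48.7% and 5. It is the only one of the 9 windows with a motif match. The third is that of Ebf3 (chr7:137314396-137314695, minus strand), with 77.0% and 46. Among the 9 windows the lowest share of G and C was 36.7%, at a start of Ebf1 that is not printed. Over all 32851 such windows the medians are 52.7% and 7. Capitals mark the one motif match found, described after the sequences.
Rora: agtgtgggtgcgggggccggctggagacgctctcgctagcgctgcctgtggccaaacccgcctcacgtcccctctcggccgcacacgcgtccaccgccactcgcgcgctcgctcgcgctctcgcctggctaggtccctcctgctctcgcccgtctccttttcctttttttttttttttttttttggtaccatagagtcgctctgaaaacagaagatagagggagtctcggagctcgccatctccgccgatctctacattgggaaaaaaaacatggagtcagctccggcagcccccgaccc
Foxp1: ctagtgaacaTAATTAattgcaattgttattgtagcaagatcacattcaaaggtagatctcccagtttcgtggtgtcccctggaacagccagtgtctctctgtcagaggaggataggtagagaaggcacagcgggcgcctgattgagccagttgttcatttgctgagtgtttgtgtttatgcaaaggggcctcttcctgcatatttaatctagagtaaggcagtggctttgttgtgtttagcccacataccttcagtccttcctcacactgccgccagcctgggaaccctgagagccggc
Ebf3: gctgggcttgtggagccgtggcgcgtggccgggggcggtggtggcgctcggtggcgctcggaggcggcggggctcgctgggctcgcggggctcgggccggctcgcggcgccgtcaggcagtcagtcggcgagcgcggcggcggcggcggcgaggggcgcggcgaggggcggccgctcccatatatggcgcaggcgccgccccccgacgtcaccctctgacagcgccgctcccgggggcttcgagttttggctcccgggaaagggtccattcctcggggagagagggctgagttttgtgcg

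The windows were searched on both strands for the ROR half-site AGGTCA, the forkhead motif TGTTTAC, the EBF motif, TCCC and GGGA with any 2 bases between, and the LIM homeodomain core TAATTA, of which the last 2 read the same on both strands. These occur in 16.3%, 3.65%, 0.904% and 5.29% of all windows. The 9 windows of the members held 1 match, TAATTA at position -240 of the printed Foxp1 window, which overlapped no other motif. The other 8 windows hold none of these letters, and a match describes the letters only.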

How the data were processed

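Total RNA of cerebellum tissue was amplified into biotin-labelled cRNA and hybridised to Illumina BeadArrays, per the labels' protocols. The first deposited table holds linear intensities. BeadStudio is named in the submitters' processing notes, and neither its version nor its background handling is given in the sources used here. The second deposited table holds the authors' log2 values, which by their values were quantile-normalized (99.9% lie within 0.01 of the log2 of quantile-normalized intensities). Groups and replicate numbers came from the sample titles.

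Intensities were corrected with normexp (offset 50), quantile-normalized and taken to log2 in limma 3.58.1 and R 4.3.3. An offset of 50 shrinks changes of dim probes. A gene is its probe with the highest 8-array mean, and genes above the lower quartile of all probes (log2 level 6.26) were tested. Genotype was the single term of each limma model (lmFit, then eBayes; two-sided tests, Benjamini-Hochberg, threshold 0.05) run over 12912 genes, or over 19272 probes where single probes are given. Alternatives changed the offset, normalization, filter, probe rule, model and arrays. Of 25697 probes 23978 have 1 symbol, 0 have several and 1719 have none.

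The members and the 14 partner and marker lists (107 symbols) were chosen with earlier results of these data known, and 1 of the lists is not reported here. All members were named, and every tested gene of the specification, cofactor and target lists could be named. Other lists gave counts and examples among their first 4 tested symbols. Pvalb and Lhx9 fall outside this rule and were named after their values were seen. Calb1, Pcp4, Ctbp1, Gad2, Atoh1, Pax6, Mycn and Gli1 also fall outside it and were named only as below the filter. Summed levels add normalized linear values over the tested genes of a list. Replicates are separate animals, per the series design. Data simulated for CKO against WT over 12912 genes held 100 changes of 0.5 log2 and 100 of 1 log2. Of these 77% and 96% were recovered, with 15 false calls over both sizes together. In the arrays themselves 2297 genes were called, so the simulated shares need not hold for them. The number of arrays limits the precision. Plots used matplotlib 3.10.9 (Python 3.11.15).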

Additional observations from a re-analysis of the deposited data

Results flagged for a closer look

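In 2 of the 28 groups of 4 arrays checked over the 14 member probes, a single array lay far from the other 3, with a gap to its nearest neighbour above Dixon's critical share of the whole range. Chance gives such a gap in about 1 of 20 groups. At the Foxp2 probe ILMN_2659660, CKO.3 read 10.02 on the log2 scale and the next CKO array 10.47. At the Ebf1 probe ILMN_2707452, WT.3 read 9.33 and the next WT array 9.77. CKO.3 was also the lowest CKO array at the Foxp2 probes ILMN_2659663 and ILMN_2701613, although its gap there did not pass Dixon's critical share. Only at the brightest Foxp2 probe was CKO.3 (10.50) within the range of the other CKO arrays.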

How the results depend on the processing

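No member changed direction under any of the 20 alternatives run on the gene fit, and 0 members were called lower under any of them. Foxp2 (0.79 to 1.06), Rora (0.53 to 0.80) and Ebf2 (0.82 to 0.92) passed throughout, and Lhx5 (0.04 to 0.16) in none. The count of members called higher was 4 with the Xist covariate, where Foxp2, Rora, Ebf1 and Ebf2 passed, and 4 to 8 when an array was left out. The same covariate left 362 genes higher and 430 lower. Xist nearly follows genotype on these arrays, so that fit takes its WT side largely from WT.3. Leaving out an array gave 782 (without CKO.4) to 1302 higher and 796 to 1265 lower, and the cause was not tested. Of the member probes 8 to 13 were called when an array was left out. Calls over all probes were not counted in these fits, so the range has no share to be read against. The replicate numbers did not pair the arrays: correlations of same-numbered deviations were -0.05 to 0.15, and 3 of the 4 numbers did not match best with themselves. With the replicate block 8 members, 1091 higher and 1059 lower genes were called, and Lhx1 passed (adjusted p = 0.0186). Neither a detection p-value filter nor a chip block could be run, since the table used carries no such columns. The paralogue pairs kept their direction in all 10 alternatives, and none passed.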
